A study of Mus musculus with 6 samples.

Results

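The forkhead (Fox) transcription factors share a winged-helix DNA-binding domain, and their transcripts were measured here in mouse embryonic stem cells (mESCs) grown in serum or in 2i medium. Members were taken as protein-coding genes of the GENCODE M21 annotation whose name is Fox, a letter from a to s and a number, which gave 44 of 53390 genes. All 44 were listed in each library. The cells were TKO mESCs, a line lacking functional Dnmt1, Dnmt3a and Dnmt3b (genotype Dnmt1-/-, Dnmt3a-/-, Dnmt3b-/-), made from male J1 cells of the 129S4/SvJae strain and grown without feeder cells on gelatin. TKO-serum cells grew in medium with 15% serum and LIF at 500 U/ml. TKO-2i cells grew in LIF at 1000 U/ml with PD0325901 (1 µM), which inhibits MEK, and CHIR99021 (3 µM), which inhibits GSK3, for which the culture description gives 14 days. Each medium had 3 biological replicates, sequenced as strand-specific poly(A) libraries from 500 ng of RNA. Because a single TKO line was used and the media differ in serum, LIF and both inhibitors, the parts of the media cannot be told apart.

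Forkhead proteins bind variants of the sequence TGTTTAC, and some, such as the FOXA proteins, open compact chromatin for other factors. Most FOXO members are held out of the nucleus by insulin and Akt signalling. FOXH1 carries Nodal and activin signals to DNA together with Smad proteins, and FOXM1 drives genes of mitosis. In pluripotent cells FOXD3 is known for keeping the stem cell state, and most other members act later, in the embryo's lineages.

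Library depth, as total estimated counts, was 46228700, 44180642 and 43896549 for TKO-2i and 38274042, 51932739 and 44827609 for TKO-serum, by replicate number. Levels are given as TPM (transcript abundance per unit of length, made relative to all transcripts of the library), and where 3 values follow a medium they belong to replicates 1, 2 and 3. Fold changes are TKO-2i over TKO-serum from edgeR's quasi-likelihood test on counts, given with their standard error (SE), with p-values adjusted over 18177 genes by the Benjamini-Hochberg method. A gene is called at an adjusted p-value under 0.05. The knocked-out genes still gave transcripts, and which of their exons these hold was not analysed here. Dnmt1 had 29.1, 34.6 and 29.3 TPM in TKO-2i and 25.7, 28.6 and 27.9 TPM in TKO-serum. Dnmt3a had 4.30, 5.19 and 4.54 TPM in TKO-2i and 21.3, 23.0 and 22.7 TPM in TKO-serum, and Dnmt3b had 6.71, 9.53 and 8.49 TPM against 18.8, 20.9 and 20.7 TPM. All 3 Dnmt genes were called, Dnmt1 higher and Dnmt3a and Dnmt3b lower in TKO-2i.

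The summed level of the forkhead genes overlapped between the media, while the shares of single members shifted. Their TPM summed to 281, 327 and 285 in TKO-2i and to 309, 336 and 319 in TKO-serum. A mean of at least 1 TPM in either medium was reached by 23 of the 44 genes, 19 of them in TKO-2i and 22 in TKO-serum. The filter on low counts was passed by 31 members, and 24 of these (77.4%) were called, where 62.5% of all tested genes were. In TKO-2i, 8 members (25.8%) were higher and 16 (51.6%) were lower, beside 31.9% and 30.6% of all genes. With a fold change of at least 2 as well, 3 members (9.68%) were higher and 9 (29.0%) lower, against 7.72% and 15.6% of all genes. The median log2 fold change of the tested members was -0.33, and that of all tested genes was 0.01. Foxa2 passed the filter through TKO-serum alone, and untested members have no call, so these shares describe the tested members and not the family.

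**Figure D1:**
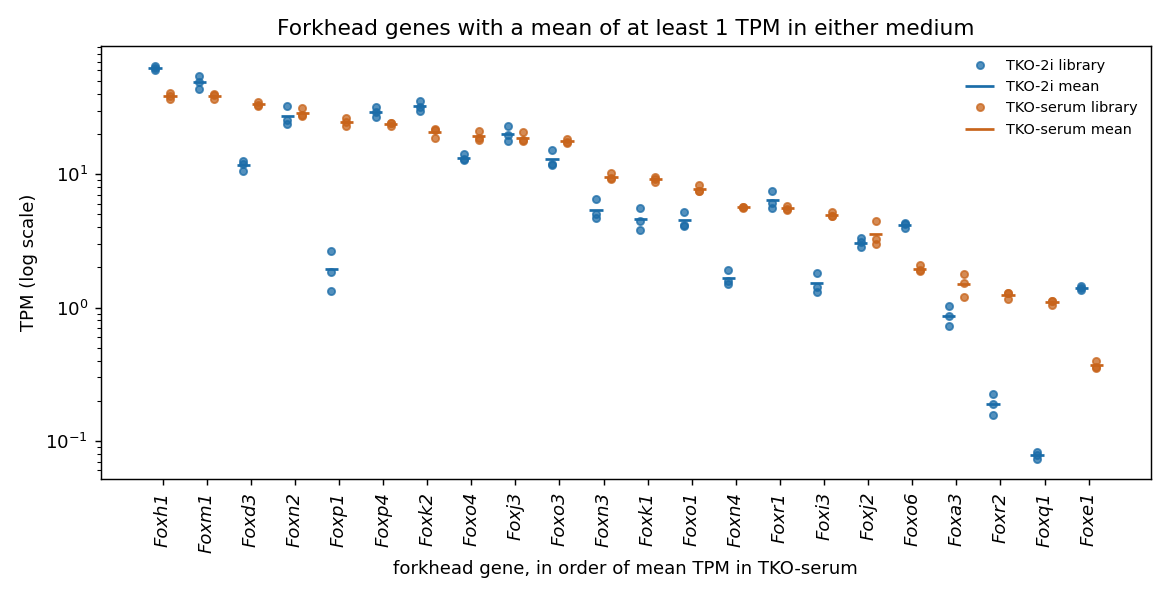
TPM (log axis) of 22 forkhead genes with a mean of at least 1 TPM in either medium, with 1 point per library, blue for TKO-2i and orange for TKO-serum, and a bar at each mean of 3 libraries. Foxh1 and Foxm1 lie at the top in both media, and Foxp1 lies between 1.32 and 2.65 TPM in TKO-2i and between 23.1 and 26.3 TPM in TKO-serum.

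The order of levels differed between the media below the leading genes. In TKO-2i the mean level was highest for Foxh1 (62.6 ± 2.44 TPM, SD, n = 3), followed by Foxm1 (49.3 ± 5.38 TPM) and Foxk2 (32.4 ± 2.72 TPM). The range of Foxk2 overlapped those of Foxp4 (29.1 ± 2.50 TPM) and Foxn2 (27.2 ± 4.78 TPM), though Foxk2 was above both in each TKO-2i library. In TKO-serum Foxh1 (38.6 ± 2.12 TPM) and Foxm1 (38.5 ± 1.86 TPM) were level, ahead of Foxd3 (33.4 ± 1.12 TPM), Foxn2 (28.9 ± 2.30 TPM) and Foxp1 (24.7 ± 1.60 TPM). Foxp1 stood at place 5 of the family in TKO-serum and at place 16 in TKO-2i, and Foxd3 at place 3 and place 9. Foxh1 held 21.1% of the family's TPM in TKO-2i and 12.0% in TKO-serum, while Foxp1 held 0.645% and 7.69%.

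Among the broadly expressed members, Foxp1 changed most. Foxp1 (ENSMUSG00000030067, chr6:98925338-99522721 of GRCm38, minus strand) encodes a transcriptional repressor with a splice form known from embryonic stem cells. Its level was 1.86, 2.65 and 1.32 TPM in TKO-2i and 23.1, 26.3 and 24.8 TPM in TKO-serum. All 3 TKO-2i libraries were far below all 3 TKO-serum libraries, with no overlap. The log2 fold change was -3.83 (SE 0.09, edgeR adjusted p = 2.9e-08), a 14.2-fold lower level, the largest fall among the tested members in the fit on counts. By the ratio of mean TPM, Foxq1 fell more. The median log2 fold change over tested genes of chromosome 6 was 0.41, and Foxp1 less this median was at -4.24. Fewer cells expressing a gene and less RNA per cell cannot be told apart in these bulk libraries, for Foxp1 or for the genes that follow.

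The fall of Foxp1 was seen at each of its main annotated starts. The 31 annotated Foxp1 transcripts were placed in 11 groups by start, joining starts within 2 kb, a grouping made after the values were seen and given without a test. Transcripts that start between positions 99027991 and 99028942 had 1.16, 1.86 and 0.861 TPM in TKO-2i and 13.4, 14.3 and 14.7 TPM in TKO-serum. Those that start between 99266515 and 99266532 had 0.364, 0.418 and 0.277 TPM against 6.12, 7.73 and 7.19 TPM. Those that start at 99163018 had 0.172, 0.0389 and 0.0839 TPM against 3.07, 3.78 and 2.89 TPM. In each of these groups the TKO-2i libraries were low and the TKO-serum libraries high, without overlap. The ratio of the means, TKO-serum over TKO-2i, was 10.9, 19.9 and 33.0 in the order given. The last ratio is not exact, since the group at 99163018 had 2.779 estimated counts in TKO-2i replicate 2, under the floor of 3. The group at 99027991 to 99028942 held most of the gene's TPM in both media, 65.9% in TKO-2i and 57.3% in TKO-serum. These values rest on how shared reads were divided among transcripts, and those under 1 TPM in TKO-2i are uncertain.

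**Figure D2:**
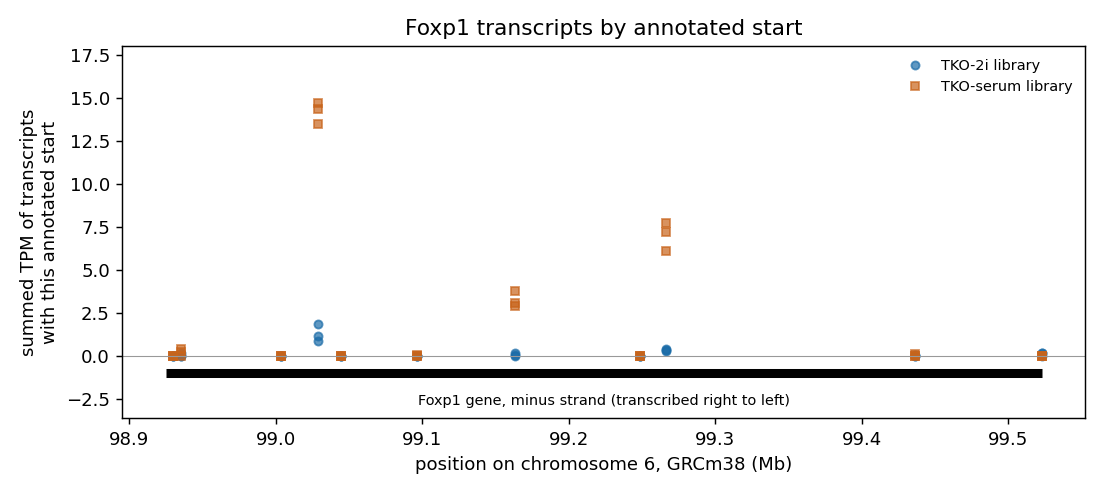
Summed TPM of Foxp1 transcripts in each library (vertical axis) at their annotated start on chromosome 6 of GRCm38 (horizontal axis, Mb), with circles for TKO-2i, squares for TKO-serum and a black bar for the gene. The 3 groups of starts with transcripts above 2 TPM in TKO-serum lie at 0.0389 to 1.86 TPM in TKO-2i.

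RefSeq promoter windows, 250 bases before to 50 after a start on GRCm38.p6, were given for 28 of the 44 members, 33 windows in all. Members without a window included Foxb1, Foxc2, Foxe1, Foxf1, Foxh1, Foxj1, Foxk1, Foxl1, Foxm1, Foxn2, Foxo4, Foxo6, Foxp2, Foxq1 and Foxs1. The forkhead windows held a median of 22 CpG dinucleotides, the sites that the absent methyltransferases act on, compared with 7 over all 32851 windows. At least 20 CpGs were found in 17 forkhead windows (51.5%) and in 26.5% of all windows. Of the 3 Foxp1 windows, those beside main starts differed in base composition, and both starts were lower in TKO-2i than in TKO-serum: the window of chr6:99028249-99028548 held 44 CpGs, with an observed over expected ratio of 1.11, and that of chr6:99266466-99266765 held 5, with a ratio of 0.282. The last window, chr6:99520944-99521243 with 13 CpGs, holds starts of transcripts that were listed at 0 in every library. The stretches before each start that lie outside annotated exons are printed 5′ to 3′ on the minus strand with CpGs in capitals, chr6:99028314-99028548 first and chr6:99266533-99266765 second. Both lie within the Foxp1 gene.
Foxp1, CpG-rich start: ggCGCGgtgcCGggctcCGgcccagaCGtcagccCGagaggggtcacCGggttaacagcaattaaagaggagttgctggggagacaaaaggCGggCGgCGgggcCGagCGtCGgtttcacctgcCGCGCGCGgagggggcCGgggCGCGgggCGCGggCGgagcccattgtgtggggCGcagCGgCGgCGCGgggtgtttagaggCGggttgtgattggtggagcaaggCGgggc
Foxp1, CpG-poor start: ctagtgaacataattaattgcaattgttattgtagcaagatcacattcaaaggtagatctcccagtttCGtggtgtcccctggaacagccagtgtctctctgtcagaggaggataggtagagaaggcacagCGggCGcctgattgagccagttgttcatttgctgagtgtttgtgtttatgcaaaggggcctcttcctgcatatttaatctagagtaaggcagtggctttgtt

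Of the other FOXP members, Foxp4 was tested and was higher in TKO-2i. Foxp4 (ENSMUSG00000023991) had 26.7, 31.7 and 29.1 TPM in TKO-2i and 22.9, 24.4 and 24.4 TPM in TKO-serum. Its TKO-2i libraries were all above its TKO-serum libraries, at a log2 fold change of 0.53 (SE 0.06, edgeR adjusted p = 0.00011). Foxp2, on chromosome 6, had at most 18 counts in a library, and Foxp3 at most 6, and neither was tested.

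FOXO members, which act on cell cycle exit, stress resistance and metabolism, were lower in TKO-2i for 3 genes and higher for 1, beside 30.6% and 31.9% of all tested genes. Foxo1 had 4.09, 5.21 and 4.19 TPM in TKO-2i and 7.43, 8.26 and 7.43 TPM in TKO-serum. Foxo3 had 11.9, 15.1 and 11.7 TPM against 17.03, 18.5 and 17.3 TPM. Foxo4 had 12.8, 14.1 and 13.0 TPM against 17.9, 21.2 and 18.6 TPM. For these 3 genes every TKO-2i library was below every TKO-serum library. The log2 fold changes were -0.69 for Foxo1 (SE 0.07), -0.33 for Foxo3 (SE 0.06) and -0.41 for Foxo4 (SE 0.05), with edgeR adjusted p-values of 4.2e-05, 0.0017 and 0.00024. Foxo6, best known from the brain, had 4.20, 4.33 and 3.94 TPM in TKO-2i and 1.88, 2.07 and 1.91 TPM in TKO-serum. It had the lowest mean TPM of the FOXO genes in both media, overlapping Foxo1 in TKO-2i, and was higher in all TKO-2i libraries than in TKO-serum, with a log2 fold change of 1.26 (SE 0.11, edgeR adjusted p = 1.5e-05).

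Foxk1 and Foxk2, close relatives that repress autophagy and promote glycolysis, moved in opposite directions. Foxk1 had 4.49, 5.60 and 3.82 TPM in TKO-2i and 8.80, 9.47 and 9.18 TPM in TKO-serum. Foxk2 had 32.1, 35.2 and 29.8 TPM in TKO-2i and 18.7, 21.5 and 21.7 TPM in TKO-serum. Foxk1 was low and Foxk2 high in all 3 TKO-2i libraries, with no overlap for either gene. Log2 fold changes were -0.88 for Foxk1 (SE 0.07, edgeR adjusted p = 1e-05) and 0.74 for Foxk2 (SE 0.05, edgeR adjusted p = 5.7e-06). The median of chromosome 11, which carries Foxk2, was 0.26, and Foxk2 less this median was at 0.48.

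Foxm1, the mitotic activator, had 43.8, 54.6 and 49.4 TPM in TKO-2i and 36.4, 39.4 and 39.7 TPM in TKO-serum. Its TKO-2i libraries were higher without overlap, at a log2 fold change of 0.59 (SE 0.05, edgeR adjusted p = 1.9e-05). Foxm1 lies on chromosome 6, and less the chromosome's median its log2 fold change was 0.18. Rhno1, a gene of the DNA damage checkpoint, starts 56 bases from Foxm1 on the opposite strand and had a log2 fold change of 0.64 (SE 0.07, edgeR adjusted p = 6e-05), or 0.23 less that median.

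Foxn3, a repressor linked to the cell cycle checkpoint, had 4.68, 6.51 and 5.04 TPM in TKO-2i and 9.14, 10.2 and 9.43 TPM in TKO-serum. The TKO-2i libraries were all lower, with a log2 fold change of -0.62 (SE 0.11, edgeR adjusted p = 0.0011). Its relative Foxn2 had 25.3, 32.7 and 23.7 TPM in TKO-2i and 27.2, 31.6 and 28.0 TPM in TKO-serum. The Foxn2 ranges overlapped and the gene was not called (log2 fold change 0.02, SE 0.09, edgeR adjusted p = 0.89).

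Foxj3, which takes part in male meiosis and muscle, had 19.7, 23.1 and 17.7 TPM in TKO-2i and 20.6, 17.6 and 17.9 TPM in TKO-serum. The TPM ranges overlapped, while counts scaled for library size did not, and the log2 fold change from counts was 0.23 (SE 0.06, edgeR adjusted p = 0.0097). This call was lost with length-scaled counts, where the log2 fold change was 0.19, and with limma on log2(TPM + 1) and log2(TPM + 0.1), where it was 0.10 on both scales. Foxj2 had 3.09, 3.30 and 2.82 TPM in TKO-2i and 3.29, 4.42 and 3.01 TPM in TKO-serum. Its ranges overlapped and it was not called, at a log2 fold change of 0.09 (SE 0.08, edgeR adjusted p = 0.34) on a chromosome with a median of 0.41.

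Shares of Foxj2 transcripts moved between the media, while the gene's sum was not called. Of 108 transcripts of 17 members with at least 2 transcripts and a mean of at least 1 TPM, a few differed in mean share of their gene's TPM by at least 10 percentage points, those of Foxj2, Foxn3 and Foxi3 among them. Transcripts are named for this difference, so their shares are a description without a test. Foxj2-201, which starts at chr6:122819914, held 66.0%, 67.1% and 80.2% of Foxj2 in TKO-2i and 39.0%, 22.2% and 28.1% in TKO-serum. Foxj2-202, which starts 3′ of it at position 122820511, held 16.6%, 32.9% and 10.03% in TKO-2i and 43.7%, 50.5% and 64.7% in TKO-serum. By TPM, Foxj2-201 led in every TKO-2i library and Foxj2-202 in every TKO-serum library, and neither share overlapped between media. By estimated counts the pair was level in TKO-serum replicate 1, at 206 for Foxj2-201 and 205 for Foxj2-202. Foxn3-207 was listed at 0 in the 3 TKO-2i libraries and held 11.1%, 18.9% and 17.7% of Foxn3 in TKO-serum. Taken from estimated counts, its mean share differed by only -2.63 percentage points. Foxi3-202 (57.6 ± 7.03% in TKO-2i and 40.4 ± 12.1% in TKO-serum, SD, n = 3) and its counterpart Foxi3-201 overlapped between media.

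The pair of members tied to embryonic stem cells and the epiblast, Foxd3 and Foxh1, went apart. Foxd3 (ENSMUSG00000067261, chr4:99656299-99658622, plus strand) encodes a repressor that stem cells need for self-renewal. It had 10.6, 12.0 and 12.5 TPM in TKO-2i and 32.4, 34.6 and 33.2 TPM in TKO-serum. All TKO-2i libraries were lower, by a wide margin over the spread within a medium. The log2 fold change of Foxd3 was -1.33 (SE 0.09, edgeR adjusted p = 3.8e-06). Gm12688, a long non-coding RNA that starts 1316 bases away on the opposite strand, was also lower in TKO-2i (log2 fold change -0.76, SE 0.15, edgeR adjusted p = 0.0023). The Foxd3 promoter, shown because the gene and this neighbour fell together, held 25 CpGs in its window. The 250 bases before the start, chr4:99656049-99656298 on the plus strand of GRCm38.p6, have 21 CpGs, in capitals.
Foxd3: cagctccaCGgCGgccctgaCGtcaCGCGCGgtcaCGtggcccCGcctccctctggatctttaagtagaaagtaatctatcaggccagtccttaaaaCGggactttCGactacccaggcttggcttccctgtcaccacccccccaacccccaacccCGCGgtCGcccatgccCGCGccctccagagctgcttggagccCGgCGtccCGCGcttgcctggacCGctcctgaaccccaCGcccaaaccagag

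Foxh1 (ENSMUSG00000033837, chr15:76668225-76669948, minus strand) had 60.4, 65.2 and 62.2 TPM in TKO-2i and 38.3, 40.8 and 36.6 TPM in TKO-serum. The most abundant member thus stood higher in each TKO-2i library than in any TKO-serum library. Its log2 fold change was 0.79 (SE 0.07, edgeR adjusted p = 1.7e-05). Ppp1r16a, which starts 1667 bases away on the opposite strand, was at 0.29 (SE 0.06, edgeR adjusted p = 0.004), a call that limma made on neither TPM scale.

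**Figure D3:**
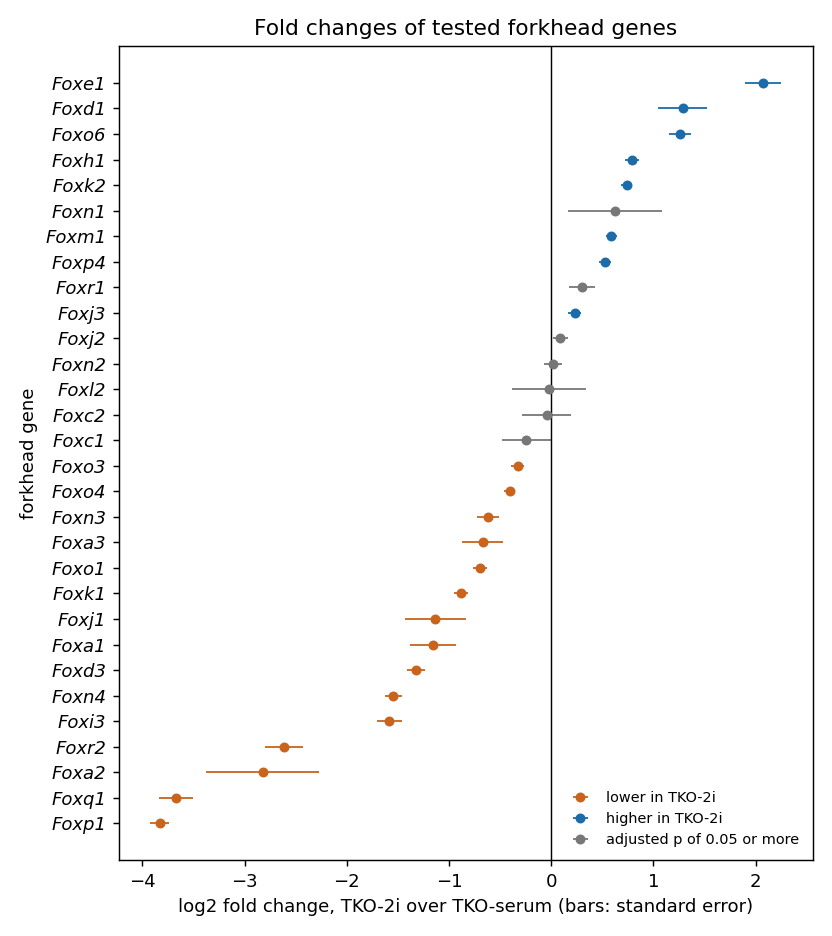
Log2 fold changes (horizontal axis, TKO-2i over TKO-serum) of 30 tested forkhead genes (vertical axis), with bars for the standard error, orange for genes called lower in TKO-2i, blue for genes called higher and grey for genes not called. Values run from -3.83 for Foxp1 to 2.07 for Foxe1, with 15 of the genes shown lower, 8 higher and 7 not called. The lower genes include Foxa2, which passed the filter through TKO-serum alone, so its adjusted p is not given in the text.

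The endoderm members were low, and the FOXA genes were lower still in TKO-2i. FOXA proteins are the pioneer factors of definitive endoderm, liver and pancreas. Foxa1 had 0.287, 0.402 and 0.197 TPM in TKO-2i and 0.619, 0.802 and 0.703 TPM in TKO-serum. Foxa3 had 1.02, 0.859 and 0.731 TPM against 1.20, 1.54 and 1.77 TPM. Both genes were lower in every TKO-2i library, with log2 fold changes of -1.16 for Foxa1 (SE 0.23, edgeR adjusted p = 0.0022) and -0.67 for Foxa3 (SE 0.20, edgeR adjusted p = 0.016). Foxa3 was no longer called without TKO-2i replicate 3 (-0.59) or without TKO-serum replicate 3 (-0.53). Foxa2 had 0, 3 and 3 estimated counts in TKO-2i and 13, 20 and 14 in TKO-serum. Its TKO-2i counts are at or under the floor of 3 counts, so that the ratio of 7.48, TKO-serum over TKO-2i, has an exact binomial 95% interval from 3.19 to 21.4, for counting error only. No TKO-2i library of Foxa2 reached the CPM minimum of the filter, so its adjusted p is not given. Foxe1, a regulator of thyroid development, had 1.41, 1.35 and 1.44 TPM in TKO-2i and 0.355, 0.399 and 0.357 TPM in TKO-serum. It was high in the 3 TKO-2i libraries, with the largest rise of the tested members (log2 fold change 2.07, SE 0.18, edgeR adjusted p = 1.6e-05).

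The motif TGTTTAC, searched on both strands, was found in 1 of the 33 forkhead windows (3.03%) and in 3.65% of all windows. The match lay in the window of Foxa1, itself a forkhead gene that was lower in TKO-2i. It is shown in capitals, read on the other strand, in the part outside annotated exons, chr12:57546122-57546361 on the minus strand of GRCm38.p6.
Foxa1: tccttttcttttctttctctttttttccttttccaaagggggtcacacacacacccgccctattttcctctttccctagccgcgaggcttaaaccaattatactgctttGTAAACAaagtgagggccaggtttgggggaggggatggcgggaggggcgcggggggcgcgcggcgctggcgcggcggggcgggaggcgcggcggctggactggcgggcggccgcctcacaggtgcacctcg

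Of the 7 members grouped for ordering under mesoderm, endothelium and somites, 3 were tested and 1 was called, beside 62.5% of all tested genes. The called member was Foxq1, whose role given next lies outside these tissues. Foxc1 and Foxc2 were tested and not called. Foxq1 (ENSMUSG00000038415, chr13:31556134-31560976, plus strand), which acts in hair and epithelial cells, had 0.0725, 0.0777 and 0.0830 TPM in TKO-2i and 1.11, 1.12 and 1.04 TPM in TKO-serum. Foxq1 was low in all TKO-2i libraries, with 11, 10 and 12 counts, and high in all TKO-serum libraries, with 133, 171 and 140 counts in TKO-serum. Its log2 fold change of -3.67 (SE 0.17, edgeR adjusted p = 5.2e-07) was second in size to that of Foxp1, on a chromosome with a median of -0.11. Foxc1, a vascular and somite factor from the same cluster of genes on chromosome 13, had 15 to 23 counts in TKO-2i and 22 to 29 in TKO-serum and was not called (log2 fold change -0.24, SE 0.24, edgeR adjusted p = 0.41). Foxc2 was not called either, at 0.281 ± 0.0634 TPM in TKO-2i and 0.321 ± 0.0323 TPM in TKO-serum (SD, n = 3). Foxf1, Foxf2, Foxl1 and Foxs1 had at most 8 counts in a library.

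Among the neural and sensory members, Foxi3 and Foxn4 were lower and Foxd1 was higher in TKO-2i. Foxi3, a factor of ear and tooth placodes, had 1.31, 1.81 and 1.44 TPM in TKO-2i and 4.82, 4.90 and 5.23 TPM in TKO-serum. Foxn4, which specifies retinal amacrine cells, had 1.59, 1.92 and 1.49 TPM against 5.72, 5.67 and 5.59 TPM. The TKO-2i libraries of both genes were low, at about the same distance from TKO-serum. Log2 fold changes were -1.58 for Foxi3 (SE 0.12, edgeR adjusted p = 9.1e-06) and -1.54 for Foxn4 (SE 0.09, edgeR adjusted p = 1.5e-06). Foxi3 lies on chromosome 6 and was at -1.99 less the median of that chromosome. Foxd1, of kidney stroma and retina, went the other way with 0.296, 0.354 and 0.342 TPM in TKO-2i and 0.145, 0.184 and 0.112 TPM in TKO-serum. Every TKO-2i library of Foxd1 was above those of TKO-serum (log2 fold change 1.29, SE 0.24, edgeR adjusted p = 0.0016), on a chromosome with a median of -0.11. Untested members of the group, Foxb1, Foxb2, Foxd2, Foxd4, Foxe3, Foxi1, Foxi2 and Foxp2, had between 0 and 18 counts in a library.

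Among members of cilia, thymus and immune cells, Foxj1 and Foxn1 were tested. Foxj1, the master regulator of motile cilia, had 0.298, 0.236 and 0.120 TPM in TKO-2i and 0.549, 0.498 and 0.548 TPM in TKO-serum. Its TKO-2i libraries were all lower, at a log2 fold change of -1.13 (SE 0.30, edgeR adjusted p = 0.01), on chromosome 11 with its median of 0.26. Foxn1, the thymus factor on the same chromosome, had 11, 13 and 22 counts in TKO-2i and 9, 6 and 16 counts in TKO-serum, which overlap (log2 fold change 0.62, SE 0.46, edgeR adjusted p = 0.27).

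The gonad and germ line members, all tested, gave 1 call of 3, beside 62.5% of all tested genes. Foxr2, known from tumours that switch it on, had 0.224, 0.190 and 0.157 TPM in TKO-2i and 1.28, 1.29 and 1.15 TPM in TKO-serum. It was low in each TKO-2i library (log2 fold change -2.61, SE 0.19, edgeR adjusted p = 5.8e-06). Foxr1, its relative, had 7.45, 5.58 and 6.11 TPM in TKO-2i and 5.36, 5.50 and 5.80 TPM in TKO-serum. The TPM ranges overlapped, while counts scaled for library size did not. Foxr1 was not called (log2 fold change 0.30, SE 0.13, edgeR adjusted p = 0.076), though it was without TKO-2i replicate 2 (0.39). Foxl2, the ovarian factor, had 9 to 15 counts in TKO-2i and 10 to 16 in TKO-serum and was not called.

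Genes that overlap a forkhead gene or start within 5 kb of its start numbered 45, beside 24 members, and 11 of them were tested. Besides Rhno1, Gm12688 and Ppp1r16a, Sympk beside Foxa3 was at a log2 fold change of 0.40 while Foxa3 was lower. Frg2f1 beside Foxj3 was at -1.06, and Sympk and Frg2f1 were called. Foxd2os beside the untested Foxd2 had 18, 21 and 15 counts in TKO-2i and 7, 8 and 4 in TKO-serum, where no library reached the CPM minimum of the filter, so its test is not given. Foxl2os, 11 bases from the start of Foxl2, was at 0.24 and was not called. Around the untested Foxp3, Flicr was at -1.43, Ppp1r3f at 0.77 and Ccdc22 at -0.34, all called, and Gm36995 at -0.28 was not, though it was without TKO-2i replicate 2 (-0.46). The calls of Flicr and Ppp1r3f were lost with length-scaled counts (-0.52 and 0.54), and that of Ppp1r3f also with limma on both TPM scales (0.28 and 0.44). How the counting used strand is not given in the sources used here, so reads of overlapping genes on opposite strands may not be separated.

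Genes known to act with or under forkhead factors were counted in 6 lists, with medians set beside 0.01 for all tested genes and calls beside 31.9% higher and 30.6% lower. Of 17 FOXO regulators, all tested, 6 were higher and 7 lower in TKO-2i, and the list's median was 0.06. The kinases that inactivate FOXO proteins were the largest rises, Akt2 (log2 fold change 0.92, SE 0.07), Sgk1 (0.90, SE 0.05) and Sgk3 (0.88, SE 0.07). Among the largest falls were Irs2, an adaptor of the insulin receptor (-1.72, SE 0.10), and the PI3 kinase subunit Pik3cb (-0.53, SE 0.06). Usp7, which removes ubiquitin from FOXO proteins, was the most abundant at 156 ± 25.4 TPM in TKO-2i and 177 ± 14.4 TPM in TKO-serum (SD, n = 3). It was called at -0.16, but not without any of the libraries taken out in turn (-0.13 to -0.18) except TKO-2i replicate 2, nor with length-scaled counts (-0.09) or with limma on either TPM scale (-0.18).

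Of 30 FOXO targets, 28 were tested, 10 were higher and 13 lower, with a median of -0.11. Cdkn1a (1.38, SE 0.07) and Cdkn1b (0.88, SE 0.06), inhibitors of cyclin-dependent kinases, and the repressor Bcl6 (1.31, SE 0.12) were the largest rises. Fbxo32, a ubiquitin ligase of muscle (-3.26, SE 0.30), and the cyclins Ccng2 (-1.93, SE 0.07) and Ccnd2 (-1.79, SE 0.08) were the largest falls. Fbxo32 passed the filter only because of TKO-serum, since 2 TKO-2i libraries reached the CPM minimum. Cdkn1b and Ccnd2 lie on chromosome 6, and less its median they were at 0.47 and -2.20. Klf2 was the most abundant target, at 328 ± 4.57 TPM in TKO-2i and 369 ± 4.96 TPM in TKO-serum (SD, n = 3), and was not called on counts (-0.02, SE 0.08). Its TPM ranges did not overlap, and limma called it lower on both TPM scales (-0.17).

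Of 19 FOXH1 partners and targets, 16 were tested, 7 were higher and 5 lower, with a median of 0.08. Eomes (2.81, SE 0.08) and Gsc (2.36, SE 0.20), transcription factors of the anterior streak, and the FOXH1 partner Smad3 (0.98, SE 0.06) were the largest rises. Fgf8 (-2.86, SE 0.28) and the Nodal antagonist Lefty1 (-2.16, SE 0.08) were the largest falls. Fgf8 passed the filter only because of TKO-serum, since 2 TKO-2i libraries reached the CPM minimum. The Nodal co-receptor Tdgf1 was the most abundant, at 335 ± 19.2 TPM in TKO-2i and 422 ± 10.6 TPM in TKO-serum (SD, n = 3), and was also lower (-0.23, SE 0.05).

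Of 29 FOXM1 partners and targets, all tested, 4 were higher and 10 lower, with a median of -0.06 and no fold change of 2 or more. Birc5 (0.44, SE 0.07), Aurkb (0.31, SE 0.06) and Cenpa (0.30, SE 0.08) were the largest called rises. Limma on either TPM scale did not call Aurkb or Cenpa. Cenpa was also not called with length-scaled counts (0.26) or without TKO-2i replicate 3 (0.26). Birc5 and Aurkb lie on chromosome 11, and less its median they were at 0.18 and 0.05. Hmmr (-0.64, SE 0.06), Cdc20 (-0.36, SE 0.09) and Tpx2 (-0.32, SE 0.05) were the largest called falls. Top2a, the most abundant at 370 ± 40.1 TPM in TKO-2i and 331 ± 24.1 TPM in TKO-serum (SD, n = 3), was not called, though it was called higher with length-scaled counts (0.25) and with the replicate block (0.17). Hmmr and Top2a also lie on chromosome 11, and less its median they were at -0.90 and -0.09.

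Of 20 FOXA partners and endoderm targets, 12 were tested, 4 were higher and 5 lower, with a median of -0.28 that turned to 0.22 with at least 10 counts in every sample. The liver factor Hnf4a (1.08, SE 0.11) and the receptor Cxcr4 (0.73, SE 0.24) were higher, and Cxcr4 lost its call without TKO-2i replicate 1 (0.69), TKO-2i replicate 3 (0.58) or TKO-serum replicate 2 (0.54) and with limma on log2(TPM + 0.1) (0.60). Apart from Sox7, Apob (-3.56, SE 0.38) and Gata6 (-1.75, SE 0.20) were the largest falls. The fold change of Sox7 is not given, because no TKO-2i library reached the CPM minimum of the filter. Of 24 FOXJ1 partners and motile cilium targets, 18 were tested, 6 were higher and 9 lower, with a median of -0.39. Tekt1 (1.85, SE 0.09), Hydin (1.12, SE 0.08) and Rsph1 (0.74, SE 0.13) were the largest rises and Dnah11 (-3.19, SE 0.29), Spag16 (-2.49, SE 0.27) and Drc1 (-2.31, SE 0.22) the largest falls, and Rfx2 was the most abundant at 20.5 ± 1.15 TPM in TKO-2i. With at least 10 counts in every sample the FOXJ1 list had 5 higher and 6 lower, with a median of -0.19. Tekt1, on chromosome 11, was at 1.59 less the median there. Drc1 was not called with length-scaled counts (-0.95) or with limma on log2(TPM + 0.1) (-1.11). Some of the falls named in these lists passed the filter only because of TKO-serum, since its CPM minimum was reached in no TKO-2i library by Sox7, in 1 by Apob and Dnah11, and in 2 by Fbxo32, Fgf8 and Spag16. Other genes of the FOXA and FOXJ1 lists, such as Dnah5 and Spag6l in TKO-serum and Gmnc in TKO-2i, reached it in 1 medium alone, so the counts and medians of both lists describe the tested genes only.

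Markers of other cell types were counted beside the forkhead genes of those lineages, with 31.9% of all tested genes higher and 30.6% lower. As in the other lists, some markers, Sox7 and Emx2 among them, passed the filter through TKO-serum alone. Of 8 primitive endoderm markers, all tested, 7 were lower in TKO-2i. Among the endoderm forkhead genes, the FOXA genes were lower and Foxe1 was higher. The TPM of the 8 markers summed to 33.2, 37.9 and 33.4 in TKO-2i and 70.4, 75.0 and 75.7 in TKO-serum. Lama1 was the most abundant of these markers. None was at 0 in all libraries of a medium, and Sox7 and Dab2 were at 0.0564 and 0.288 TPM in TKO-2i. Of 8 mesoderm and streak markers, 7 were tested, 1 was higher and 3 lower, and the sum of all 8 was 13.9, 13.98 and 19.0 TPM in TKO-2i and 4.93, 5.39 and 5.89 TPM in TKO-serum, led by T. Of 8 neural markers, 6 were tested, 2 were higher and 4 lower. Among the neural and sensory forkhead genes, Foxi3 and Foxn4 were lower and Foxd1 was higher. The 8 markers summed to 87.7, 87.3 and 85.9 TPM in TKO-2i against 129, 133 and 130 TPM in TKO-serum, led by Tubb3. Emx2 and Neurog2 were at 0 in TKO-2i. Of 8 trophoblast markers, all tested, 3 were higher and 4 lower, with sums of 44.1, 43.1 and 40.6 TPM against 41.9, 41.2 and 39.2 TPM, led by Tfap2c. Fibroblast markers summed to 4.12, 4.81 and 4.55 TPM in TKO-2i and 5.86, 6.48 and 6.03 TPM in TKO-serum, led by Thy1, with 3 of 8 tested, 2 of these lower, and Twist2 at 0 in TKO-2i. The part of these cell types in the forkhead results was not tested. Of 10 pluripotency markers, all tested, 2 were higher and 6 lower, and Pou5f1 stood at 1017 ± 37.7 TPM in TKO-2i and 1250 ± 2.28 TPM in TKO-serum (SD, n = 3). The 10 summed to 5599, 5139 and 5097 TPM in TKO-2i and 6579, 6282 and 6365 TPM in TKO-serum, led by Dppa5a.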

How the data were processed

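RNA-seq libraries of TKO mESCs, 3 in 2i and 3 in serum, were analysed. The authors deposited an estimated count of reads for each transcript, not normalized and mostly not whole, because reads shared by transcripts are divided between them. TPM, also deposited, is scaled for transcript length and library. The columns are those of salmon, whose version and index are not given in the sources used here, and the submitters' processing notes name the build mm10. Between 85.1% and 85.8% of values above 0 were not whole.

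Of 136288 transcripts, 136100 were found in GENCODE M21 by their identifier, and values were summed per gene. Estimated counts were rounded, filtered with filterByExpr (count minimum 10), normalized by TMM and tested with edgeR 4.0.16 (R 4.3.3) by the two-sided quasi-likelihood test with Benjamini-Hochberg adjustment, medium as the only factor. The SE is the log2 fold change over the square root of F. Floors are 3 counts per library, and 3 counts correspond to 0.0564 to 0.0778 CPM. Intervals and floors cover counting error only. The fit was tested on simulated data. It recovered 30 of 74 genes set at an absolute log2 fold change of 0.5, 52 of 70 at 1 and 51 of 56 at 2. A gene that was not called may thus have changed. The alternatives were DESeq2 1.42.0, its size factors, no filter, at least 10 counts in every sample, length-scaled TPM counts, limma 3.58.1 on log2(TPM + 1) and log2(TPM + 0.1), protein-coding genes, a replicate block and each library left out.

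Every member may be named, with values in each library from a mean of 1 TPM or a called fold change of 2. From each list came the 3 largest called rises and falls (mean CPM of 1 or more) and the most abundant gene, from transcripts those whose share moved by 10 percentage points, and every tested neighbour. The members and lists were chosen with earlier results of these data known. The division of shared reads makes close relatives and single transcripts less certain. Which sequencing pool held each library is not given in the sources used here, so pools were not compared. Protein sequences were not used here. Some genes that the rule would name are not reported here or drawn in the plots, and the counts of the text, though not of the captions, include them.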

Additional observations from a re-analysis of the deposited data

How the results depend on the processing

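The counts of forkhead genes higher and lower in TKO-2i stayed at 7 to 9 and 15 to 17 under every alternative. Changes of low genes come out smaller with limma on log2(TPM + 1), where 0 forkhead genes were at least 2-fold higher and 4 lower, and over all genes 575 and 1171. Some abundant members moved too. Over the processing alternatives the log2 fold change of Foxm1 ran from 0.34 to 0.59 and that of Foxp4 from 0.27 to 0.52. Requiring 10 counts in every sample, which tests fewer genes, left 1732 genes at least 2-fold lower and 2 lower FOXA partners and targets. Both limma scales gave 3 higher FOXO regulators and 1 higher FOXM1 gene, and the cause was not tested. With single libraries left out, 2 to 6 FOXM1 genes were higher and 6 to 12 lower, the lowest without TKO-2i replicate 3 and TKO-serum replicate 1. The replicate block called 12539 genes, 8 forkhead genes higher and 16 lower, and 7 higher FOXM1 genes. To see whether replicate numbers pair libraries, each gene's mean in its medium was taken off and the deviations were correlated. In these deviations, same-numbered libraries correlated at 0.24, 0.33 and 0.01. Each was best with its own number except TKO-2i replicate 3 (0.12 with TKO-serum replicate 1), so the numbers were not taken as pairs. Without this step, r was at least 0.988 within a medium and at most 0.9383 between media. Direction changed for genes that were not called: Foxj2 was at -0.12 with length-scaled counts, -0.16 with limma on log2(TPM + 1) and -0.20 on log2(TPM + 0.1). Foxn2 was at -0.0246 with 10 counts in every sample, -0.000615 with length-scaled counts, -0.0943 with limma on log2(TPM + 1), -0.0977 on log2(TPM + 0.1) and -0.00777 among protein-coding genes. With single libraries left out, Foxn2 ran from -0.079 to 0.0694, Foxc2 from -0.195 to 0.0833, Foxl2 from -0.297 to 0.234 and Klf2 from -0.0835 to 0.0603. List medians near 0 changed sign too: the FOXO regulators ran from -0.05 to 0.05 over the processing alternatives and from -0.05 to 0.12 with single libraries left out, and the FOXH1 list from -0.05 to 0.16 over the processing alternatives. The median of the FOXA list ran from -0.54 with limma on log2(TPM + 0.1) to 0.22 with at least 10 counts in every sample, and from -0.40 to -0.08 with single libraries left out. Over the tested forkhead genes, 441 alternative fits kept direction and call, 15 changed direction, 5 lost a call and 1 gained one. Genes with few counts, such as Foxa2, are limited by depth.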
